A study of Mus musculus with 16 samples.

Results

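The genes that encode the main components of basement membranes were followed across the cell classes of mouse triple-negative mammary tumours. The set of 10 genes, of 23467 gene symbols in the tables used, was taken by name: Col4a1, Col4a2, Lama4, Lama5, Lamb1, Lamc1, Nid1, Nid2, Hspg2 and Col15a1. Cells came from end-stage, untreated tumours of WB1P mice (WapCre;Brca1F/F;Trp53F/F) and of WB1P-Myc mice (WapCre;Brca1F/F;Trp53F/F;Myc). In both models Cre under the Wap promoter, which is active in mammary epithelium, deletes Brca1 and Trp53, and the added allele of the WB1P-Myc model is a Myc and luciferase construct at Col1a1 that Cre switches on. Live single cells were sorted and profiled by Drop-seq, in which each cell shares a droplet with a barcoded bead and transcripts are tagged at their 3′ ends with unique molecular identifiers (UMIs). Each model was 1 suspension run as 4 droplet fractions, so each model counted as 1 sample, and no test was run between models or classes. Tumours of 2 mice per model are named in the study, without a link from fractions to mice. Intervals in the text are exact 95% intervals that cover counting error only, and the spread between fractions is technical.

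Basement membranes are thin sheets of matrix under epithelia and around capillaries and their pericytes. Laminin, a cross-shaped trimer of an α, a β and a γ chain, polymerises on the cell surface, and collagen IV forms a second, covalently linked network. Nidogens and perlecan join the networks, and collagen XV ties the sheet to the fibrous matrix outside it. In tumours endothelial cells, pericytes, fibroblasts and tumour cells can all make these proteins, and a given cell may make only some of them.

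Col4a1 and Col4a2 lie head to head in the genome, and the stretch between their start sites is shown because both transcripts begin in it, on opposite strands. In the RefSeq annotation of build GRCm38.p6 the first exons overlap by 22 bases, so these bases lie in the first exon of both genes. Capitals mark a GC box (GGGCGG, or CCGCCC on the other strand).

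Col4a1, chr8:11312805-11312826, minus strand: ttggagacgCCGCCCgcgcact

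Col4a2, chr8:11312805-11312826, plus strand: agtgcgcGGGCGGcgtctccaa

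The regions upstream of Lama5 and Col15a1 are shown because these genes differed most in opposite directions between epithelial-like tumour cells and fibroblast-like cells. Each is the 150 bases before the annotated start, in the direction of transcription, with GC boxes and CCAAT boxes (CCAAT or ATTGG) in capitals.

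Lama5, chr2:180225860-180226009, minus strand: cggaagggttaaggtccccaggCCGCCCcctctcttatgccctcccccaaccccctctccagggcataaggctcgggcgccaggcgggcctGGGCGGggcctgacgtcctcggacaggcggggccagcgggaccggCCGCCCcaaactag

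Col15a1, chr4:47207862-47208011, plus strand: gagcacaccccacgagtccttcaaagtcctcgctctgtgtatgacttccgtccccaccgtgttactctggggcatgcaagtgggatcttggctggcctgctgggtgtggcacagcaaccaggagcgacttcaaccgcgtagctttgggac

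Promoter windows of 300 bases, from 250 before to 50 after the start, were matched for 7 of the 10 genes. The Lama5 window held 4 GC boxes, that of Hspg2 5, Col4a2 3, Lamb1 2, and Col4a1 and Nid1 1 each, while that of Col15a1 held none. Of 32851 windows in the RefSeq table, 35.7% held a GC box. A CCAAT box stood in the windows of Col4a1, Col4a2, Lamb1 and Nid1, as in 37.4% of all windows, and none of the 7 held TATAAA, which 13.6% of windows did. GC content was 74.0% for Col4a1, 72.7% for Lama5 and 52.3% for Col15a1. These matches describe the sequence only.

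After the filters of the study (450 to 4000 genes and under 20% mitochondrial UMIs) 4798 of 8000 barcodes were kept, 1307 from WB1P and 3491 from WB1P-Myc. The WB1P libraries were shallower, with 256985 to 1918672 UMIs each, than the WB1P-Myc libraries, with 3814562 to 4960334. Clusters made without the genes listed here gave 109 endothelial-like, 97 pericyte-like, 396 fibroblast-like, 1626 epithelial-like, 620 Schwann-like, 872 chondrocyte-like and 1078 macrophage-like cells. The Schwann-like cells were all, and the chondrocyte-like cells nearly all, from WB1P-Myc (855 of 872). Of the epithelial-like cells of WB1P, 652 of 656 were in a cluster led by Csn3, Lcn2 and Krt7, and 964 of 970 of WB1P-Myc in a cluster led by Gpx2, Igf2 and Sox11, with no epithelial marker among its 10 leading genes. WB1P fraction 1 held 1 endothelial-like, 2 fibroblast-like and no pericyte-like cells, so stromal values by fraction are for the other 7 fractions. One barcode was kept in more than 1 library. Myc was at 67.2 CPM (56.4 to 79.4) in tumour-type cells (epithelial-, Schwann- and chondrocyte-like together) of WB1P and 161 CPM (153 to 169) in those of WB1P-Myc, where CPM is UMIs of a gene per 1000000 UMIs of the class. In tumour-type cells Brca1 stood at 5.39 CPM (WB1P) and 15.3 CPM (WB1P-Myc) and Trp53 at 7.85 and 18.4 CPM, while Trp53 in fibroblast-like cells was at 43.6 and 41.4 CPM. Tags at 3′ ends need not lie in the deleted part of either gene, so these levels check nothing.

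The class labels held for most defining markers, with overlap between vessel cells and an exception in WB1P. Cdh5, the endothelial cadherin, was at 949 CPM in endothelial-like cells, at 0 in pericyte-like and at 0.7 CPM in fibroblast-like cells. Rgs5, a pericyte marker, was at 4057 CPM in pericyte-like cells and still at 953 CPM in endothelial-like cells, of which 68 of 109 had a UMI of some pericyte marker. Of the pericyte-like cells 40 of 97 had a UMI of an endothelial marker, while 7 markers of that list, Cdh5 and Kdr among them, were at 0 in the class. The 12 fibroblast markers summed to 51784 CPM in fibroblast-like and 23912 CPM (14441 to 32581 by fraction) in pericyte-like cells. The 17 chondrocyte-like cells of WB1P went against their label, with Col2a1 and Sox10 at 0 UMIs, Acan at 10 UMIs and Epcam at 1376 CPM, against 4550 CPM of Col2a1 and 93.8 CPM of Epcam in those of WB1P-Myc. They hold 22523 of the 2080064 UMIs of the class and stay in its pooled values. The share of the values below that comes from mixed or neighbouring cells was not tested beyond leaving out such cells, as given beside the results.

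Summed over the 10 genes, endothelial-like cells carried the most basement membrane transcript, 7009 CPM (6677 to 7354), followed by pericyte-like cells with 4450 CPM and fibroblast-like cells with 2645 CPM. By fraction the sums ran from 4195 to 9405, from 3757 to 5981 and from 2094 to 3113 CPM. Endothelial-like and pericyte-like fractions thus overlapped and pericyte-like and fibroblast-like fractions did not. Col4a1 and Col4a2 held 1122 of 1669 of these UMIs in endothelial-like, 354 of 567 in pericyte-like and 1439 of 3759 in fibroblast-like cells. The other genes with enough UMIs were not past 2-fold between pericyte-like and fibroblast-like cells over both models, as given below. The sum over the 10 genes was 632 CPM in chondrocyte-like, 422 CPM in epithelial-like and 291 CPM in Schwann-like cells. Macrophage-like cells, not known as a main source of basement membrane, were at 79.7 CPM (38.4 to 160 by fraction), the level against which low values here should be read.

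**Figure D1:**
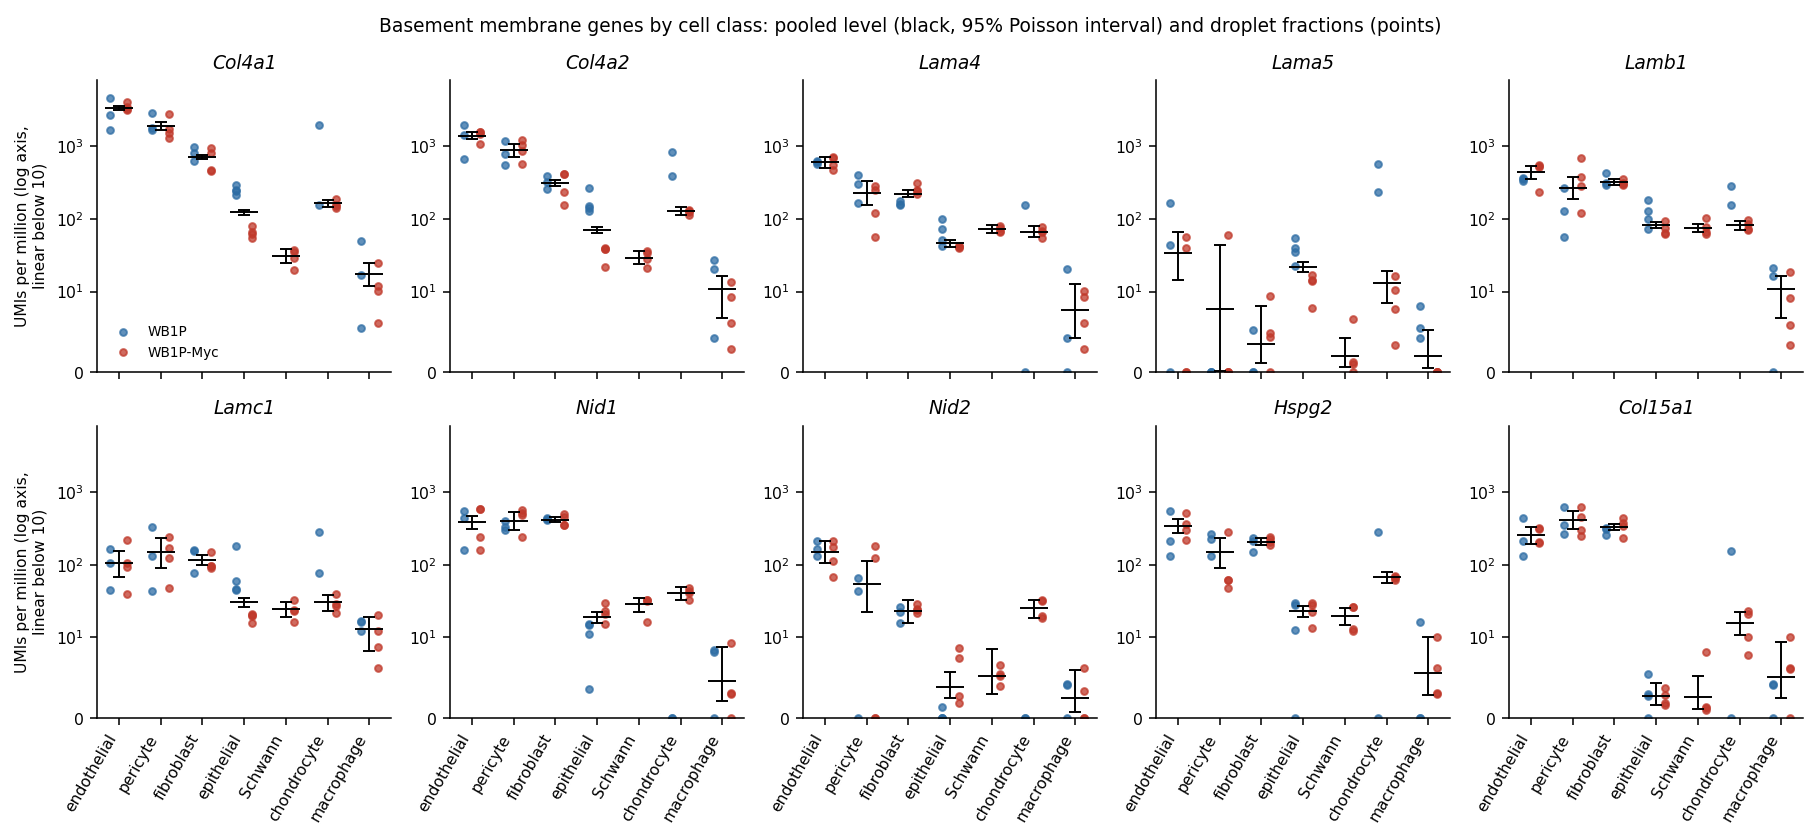
Level of each basement membrane gene (CPM, y axis, logarithmic above 10 and linear below) in 7 cell classes (x axis). Black bars are pooled values of both models with exact 95% Poisson intervals and points are fractions with at least 5 cells, blue for WB1P and red for WB1P-Myc. Col4a1 and Col4a2 fall from endothelial- to pericyte- to fibroblast-like cells, Nid1 is level over these 3 classes, Col15a1 is highest in pericyte-like cells, and Lama5 has few UMIs outside epithelial- and chondrocyte-like cells.

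Collagen IV transcripts were highest in endothelial-like cells, followed by pericyte-like and then fibroblast-like cells. Col4a1 was at 3326 CPM (3098 to 3566) in endothelial-like cells, 1907 CPM (1675 to 2162) in pericyte-like and 706 CPM (663 to 752) in fibroblast-like cells. In the endothelial-like cells of WB1P, Col4a1 was at 1678, 2668 and 4510 CPM in fractions 2 to 4, and in WB1P-Myc at 4022, 3433, 3267 and 3109 CPM in fractions 1 to 4. The pericyte-like values of Col4a1 were 2823, 1684 and 1779 CPM in WB1P and 1687, 2791, 1523 and 1275 CPM in WB1P-Myc, and the fibroblast-like values were 955, 624 and 809 CPM and 806, 473, 459 and 949 CPM. Each endothelial-like and each pericyte-like value of Col4a1 thus lay above all fibroblast-like values, and endothelial-like and pericyte-like values overlapped.

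Col4a2 followed the same order, with 1386 CPM (1240 to 1544) in endothelial-like, 871 CPM (717 to 1049) in pericyte-like and 306 CPM (278 to 336) in fibroblast-like cells. Endothelial-like fractions were at 662, 1413 and 1925 CPM in WB1P and 1439, 1557, 1052 and 1555 CPM in WB1P-Myc for Col4a2. On the log2 scale the difference between pericyte-like and fibroblast-like cells was 1.43 (1.22 to 1.64) for Col4a1 and 1.51 (1.19 to 1.81) for Col4a2, with the pericyte-like value higher in 7 of 7 fractions for both. Between endothelial-like and fibroblast-like cells it was 2.24 (2.10 to 2.37) for Col4a1 and 2.18 (1.97 to 2.39) for Col4a2. When cells were instead classed one by one by their detected markers, the pericyte-like over fibroblast-like differences were 2.53 for Col4a1 and 2.51 for Col4a2, and without mixed cells they were 1.32 and 1.39.

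A gene past 2-fold with 50 UMIs in the group where it was high but not in the other reached the minimum through that group. Such genes are given as values and left out of the counts below. The background shares include genes of that kind, so the counts are stricter than the shares beside them. Of the 8 genes with at least 50 UMIs over pericyte-like and fibroblast-like cells, Col4a1 and Col4a2 were past 2-fold, both higher in pericyte-like cells in each model, where 4.78% of all genes with that many UMIs were higher and 14.8% lower. The other 6 lay between -0.47 for Hspg2 and 0.36 for Lamc1 on the log2 scale, each with an interval that held 0. Lamb1, at -0.27, was at -1.24 (-2.48 to -0.23) in WB1P, from 8 pericyte-like against 177 fibroblast-like UMIs, and at 0.22 (-0.42 to 0.81) in WB1P-Myc. Lama5 and Nid2 had too few UMIs for this comparison.

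In the stromal classes Col4a2 was seen more often in cells with Col4a1 than in cells without it. After each cell was thinned to 600 UMIs, 50 of 81 endothelial-like cells with Col4a1 also had Col4a2 (61.7%, 50.3 to 72.3%), against 6 of 28 without Col4a1 (21.4%). The shares were 51.8% and 14.6% in pericyte-like and 24.2% and 8.7% in fibroblast-like cells. In tumour-type classes few cells had both, with shares of 13.9% and 3.86% in epithelial-like cells. These pool 2 clusters, with 16.3% and 7.24% in the Csn3-led cluster and 2 of 30 against 17 of 938 cells in the Gpx2-led cluster. The shares were 10.3% (4.2 to 20.1%) and 6.1% (4.5 to 8.0%) in chondrocyte-like cells, and 0 of 10 against 9 of 610 Schwann-like cells. Col4a1 itself was seen in 74.3% of endothelial-like, 57.7% of pericyte-like and 30.3% of fibroblast-like cells at this depth, and in 0.93% of macrophage-like cells. An endothelial-like cell held 1.78 ± 1.71 (SD over 109 cells) Col4a1 UMIs of 600, with at most 8 in a cell.

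Col4a1 supplied about the same part of the Col4a1 and Col4a2 UMIs in the 3 stromal classes. Its part was 70.6% (67.8 to 73.2%) in endothelial-like, 68.6% (63.5 to 73.4%) in pericyte-like and 69.8% (67.3 to 72.1%) in fibroblast-like cells. In tumour-type classes of both models together the part was 63.9% (61.1 to 66.5%) in epithelial-like, 56.2% (52.1 to 60.1%) in chondrocyte-like and 51.4% (43.9 to 58.8%) in Schwann-like cells. Within WB1P-Myc the epithelial-like part, 65.4% (60.7 to 69.8%), overlapped those of pericyte-like cells, 66.5% (59.4 to 73.1%), and fibroblast-like cells, 69.0% (65.7 to 72.1%), while the chondrocyte-like and Schwann-like intervals lay below the fibroblast-like one. UMIs of both genes depend on how well each 3′ end is captured, so the part is compared between classes and not read as a ratio of chains.

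**Figure D2:**
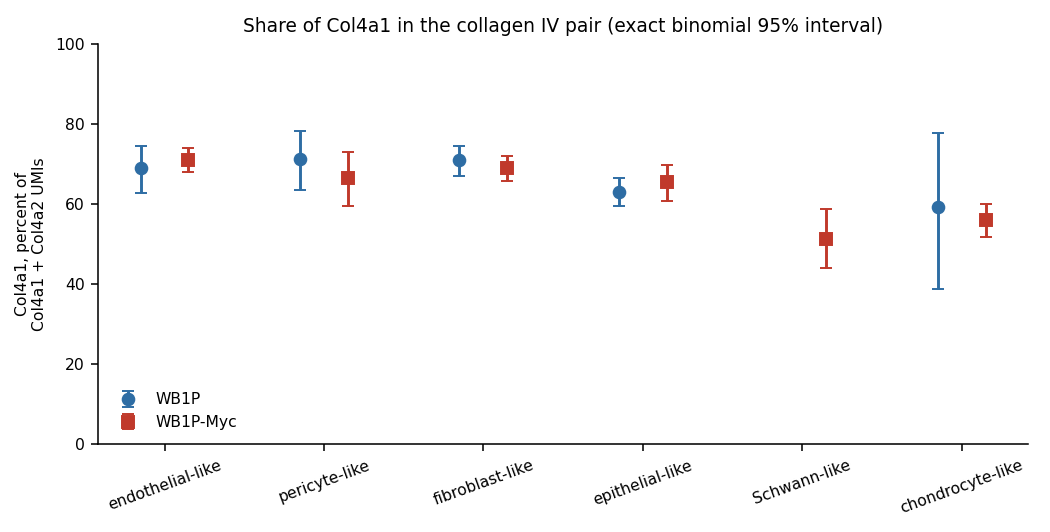
Col4a1 UMIs as a percentage of Col4a1 and Col4a2 UMIs (y axis) by cell class and model (x axis), with exact binomial 95% intervals, for groups with at least 20 UMIs. Endothelial-, pericyte- and fibroblast-like cells of both models stand between 66.5 and 71.2%, and Schwann- and chondrocyte-like cells of WB1P-Myc at 51.4 and 56.0%.

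Of the laminin chains Lama4 was higher in endothelial-like than in fibroblast-like cells. Lama4, the α chain typical of endothelial and mesenchymal laminins, was at 601 CPM (506 to 707) in endothelial-like cells against 228 CPM (152 to 327) in pericyte-like and 220 CPM (197 to 246) in fibroblast-like cells. By fraction Lama4 in endothelial-like cells was at 574, 628 and 605 CPM in WB1P and 552, 469, 692 and 709 CPM in WB1P-Myc, all above the highest fibroblast-like fraction, 311 CPM. The log2 difference of Lama4 was 1.45 (1.15 to 1.74) over fibroblast-like and 1.40 (0.82 to 2.03) over pericyte-like cells, higher in 7 of 7 fractions each. Among tumour-type classes Lama4 was highest in Schwann-like cells, at 72.6 CPM (63.4 to 82.9), and chondrocyte-like cells, at 66.3 CPM, against 46.3 CPM (41.2 to 51.9) in epithelial-like cells.

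Lama5, the α chain of epithelial and mature vascular basement membranes, had few UMIs in stromal cells, of which there were fewer. It was at 21.9 CPM (18.4 to 25.8) in epithelial-like cells from 141 UMIs, and at 3.5 CPM (1.1 to 8.2) in fibroblast-like cells from 5 UMIs. The log2 difference of Lama5 was 2.64 (1.38 to 4.28), with the epithelial-like value higher in 7 of 7 fractions, and the epithelial-like UMIs alone carried it past the minimum of 50. In endothelial-like cells Lama5 was at 33.6 CPM (14.5 to 66.2) from 8 UMIs and in pericyte-like cells at 7.8 CPM from 1 UMI. The endothelial-like level could not be placed above or below the epithelial-like level at this depth.

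Lamb1 and Lamc1, the β and γ chains found in most laminins, differed less between stromal classes. The Lamb1 level was 433 CPM (353 to 525) for endothelial-like cells, 322 CPM (293 to 352) for fibroblast-like cells and 267 CPM (185 to 373) for pericyte-like cells. Lamc1 was at 149 CPM (89.8 to 233) in pericyte-like, 116 CPM (99.1 to 135) in fibroblast-like cells and 105 CPM (67.9 to 155) in endothelial-like cells, with intervals that overlap. Tumour-type classes carried Lamb1 at similar levels, 82.6 CPM in epithelial-like, 81.2 CPM in chondrocyte-like and 75.3 CPM in Schwann-like cells, against 10.8 CPM in macrophage-like cells.

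The nidogens, which bridge laminin and collagen IV, had different distributions. Nid1 was at 414 CPM (382 to 449) in fibroblast-like, 400 CPM (298 to 526) in pericyte-like and 382 CPM (308 to 469) in endothelial-like cells, and the intervals overlap. Fibroblast-like fractions of Nid1 were at 420, 411 and 437 CPM in WB1P and 456, 346, 494 and 354 CPM in WB1P-Myc. The Nid2 level was 151 CPM (106 to 209) in endothelial-like cells but 23.2 CPM, from 33 UMIs, in fibroblast-like cells, a log2 difference of 2.70 (1.98 to 3.43) seen in 7 of 7 fractions. Nid2 in pericyte-like cells rested on 7 UMIs, 54.9 CPM (22.1 to 113).

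Hspg2, the gene of perlecan, a heparan sulfate proteoglycan that links cells, growth factors and the laminin network, was at 340 CPM (270 to 423) in endothelial-like, 207 CPM (184 to 232) in fibroblast-like and 149 CPM (89.8 to 233) in pericyte-like cells. Endothelial-like values of Hspg2 spread widely, with 132, 209 and 550 CPM in WB1P and 513, 299, 221 and 366 CPM in WB1P-Myc. The difference from pericyte-like cells was 1.19 (0.46 to 1.99) on the log2 scale for Hspg2, and it was 0.86 without WB1P-Myc fraction 1 and 0.60 without mixed cells, under 2-fold.

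Col15a1, the collagen of the outer face of the basement membrane, was lower in endothelial-like than in pericyte-like cells. It was at 416 CPM (312 to 544) in pericyte-like, 326 CPM (297 to 358) in fibroblast-like cells and 252 CPM (192 to 324) in endothelial-like cells. The pericyte-like value of Col15a1 was above the endothelial-like value in 7 of 7 fractions, by 0.72 on the log2 scale (interval of the endothelial-like over pericyte-like value -1.28 to -0.16). In epithelial-like cells Col15a1 was at 2.8 CPM (1.6 to 4.4) and in macrophage-like cells at 5.1 CPM, so the epithelial-like value was no higher than in cells not known to make it.

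Over endothelial-like and fibroblast-like cells 9 of the 10 genes had at least 50 UMIs, and 4 were past 2-fold, all higher in endothelial-like cells: Col4a1, Col4a2, Lama4 and Nid2. Of all genes with that many UMIs 13.1% were higher and 18.0% lower. Lamb1 at 0.43 and Hspg2 at 0.72 on the log2 scale were higher by less than 2-fold, and the intervals of Lamc1, Nid1 and Col15a1 held 0. Between endothelial-like and pericyte-like cells 7 had enough UMIs and Lama4 and Hspg2 were past 2-fold, with a background of 21.0% higher and 8.71% lower. Both reached the minimum through their endothelial-like UMIs, with 29 and 19 UMIs in pericyte-like cells, and are not counted. Without mixed cells the endothelial-like over fibroblast-like difference was 1.99 for Col4a1, 2.07 for Col4a2, 1.31 for Lama4 and 2.89 for Nid2.

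Against fibroblast-like cells, epithelial-like tumour cells were past 2-fold lower for 8 of the 10 genes, where 17.0% of all genes were lower and 25.7% higher. Lama5, higher as given above, and Col15a1, lower, are not counted, since each reached the minimum through the class where it was high. Col15a1 had 18 epithelial-like against 464 fibroblast-like UMIs, at a log2 difference of -6.87 (-7.64 to -6.19), with an epithelial-like level in the range of macrophage-like cells. Of the 8, Nid1 was farthest, at -4.45 (-4.75 to -4.17) on the log2 scale, followed by Hspg2 at -3.17. Nid2 at -2.58, Col4a1 at -2.52, Lama4 at -2.25 and Col4a2 at -2.14 stood between, and Lamb1 at -1.96 and Lamc1 at -1.92 were nearest. For each of these and for Col15a1 the epithelial-like value was lower in 7 of 7 fractions. The order differed between models. In WB1P Col4a2 was nearest to the fibroblast-like level at -1.14 (-1.42 to -0.86), beside Lamc1 at -1.24, and in WB1P-Myc Lamb1 at -2.10 was nearest and Col4a2 was at -3.10. Col15a1 had 7 epithelial-like UMIs in WB1P and 11 in WB1P-Myc.

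As parts of all UMIs of a gene in the kept cells, the sources differed between genes and models. In WB1P 40.6% (37.9 to 43.4%) of Col4a1 UMIs were in epithelial-like, 33.5% in fibroblast-like cells, 13.97% in endothelial-like and 9.2% in pericyte-like cells. In WB1P-Myc endothelial-like cells held 619 of 2063 Col4a1 UMIs, fibroblast-like cells 28.6%, chondrocyte-like cells 15.8% and epithelial-like cells 14.01%. Of the Lama5 UMIs of WB1P 91.0% (83.6 to 95.8%) were in tumour-type cells, and so were 90.2% (82.2 to 95.4%) of those of WB1P-Myc. Fibroblast-like cells held 75.7% of Nid1 in WB1P and 49.7% in WB1P-Myc, and 75.6% and 70.1% of Col15a1.

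These parts follow the number and depth of the captured cells as well as the level in each. Fibroblast-like cells were 13.4% of WB1P cells and 6.33% of WB1P-Myc cells and held 15.8% and 7.48% of the UMIs. Endothelial-like cells were 2.83% and 2.06% of the cells and held 1.81% and 1.49% of the UMIs, yet 173 of 1238 and 619 of 2063 Col4a1 UMIs. Dissociation and sorting can change which cells are captured, and the parts describe these suspensions and not the tumours.

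**Figure D3:**
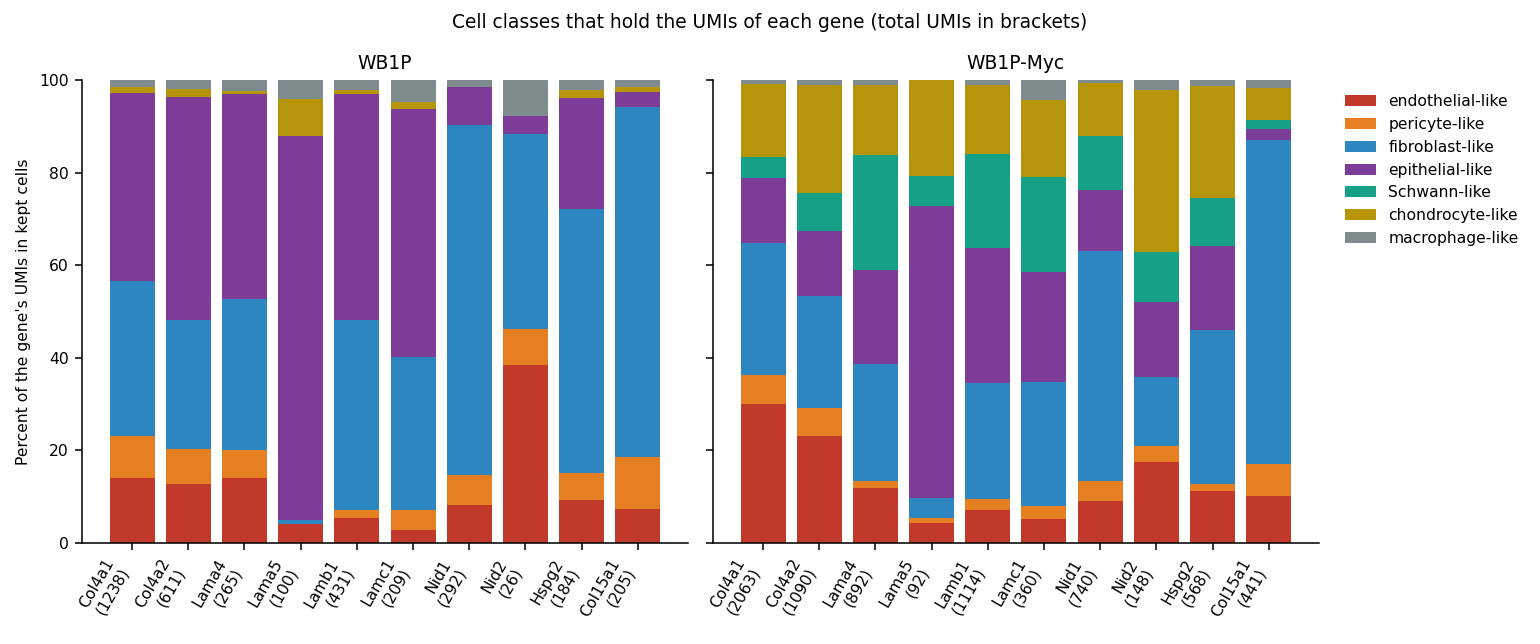
Share of the UMIs of each basement membrane gene (y axis, percent) held by each cell class in WB1P and in WB1P-Myc, as stacked bars per gene (x axis). Col15a1 and Nid1 in WB1P come mostly from fibroblast-like cells, Lama5 mostly from epithelial-like cells, and the chondrocyte-like part is larger in WB1P-Myc, 15.8% of Col4a1.

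The second question was whether the models differed in these genes within a cell class. WB1P-Myc differs from WB1P by the Myc construct, but each model was a single suspension, and differences between suspensions and between models cannot be told apart. In fibroblast-like cells, 0 of 8 genes with at least 50 UMIs were past 2-fold between WB1P-Myc and WB1P, where 3.11% of all genes were higher and 1.96% lower. This count is near the shares of all genes. The log2 differences ran from -0.28 for Lamc1 to 0.62 for Lama4. Col4a1 was at 787 CPM in WB1P and 659 CPM in WB1P-Myc, Nid1 at 419 and 412 CPM, and Col15a1 at 294 and 346 CPM. The class was made up differently in the models, with 89, 78 and 8 of the 175 cells of WB1P and 121, 59 and 41 of the 221 cells of WB1P-Myc in the 3 subclusters described below, which differ in these genes.

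Lama4 was the gene of the set for which fibroblast-like fractions of the models did not overlap, at 177, 156 and 159 CPM in WB1P and 311, 220, 243 and 246 CPM in WB1P-Myc. Its difference was 0.62 (0.25 to 0.99) on the log2 scale, and 7.98% of all genes had every WB1P-Myc fraction above every WB1P fraction. With cells classed one by one by their markers, the Lama4 difference was 0.08 and those of Col4a1 and Nid1 were -0.99 and -0.86, so the fibroblast comparison depends on which cells are counted as fibroblasts.

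In vessel cells too none of the genes with enough UMIs was past 2-fold between models, and few of all genes were. In endothelial-like cells 0 of 7 genes were past 2-fold, with a background of 4.2% higher and 1.77% lower, and in pericyte-like cells 0 of 4, with 3.79% and 9.76%. These counts are near the shares of all genes and are not read as a result about the set, whose other genes had too few UMIs. Col4a1 in endothelial-like cells was at 2853 CPM in WB1P and 3488 CPM in WB1P-Myc, a log2 difference of 0.29 (0.04 to 0.54) with overlapping fractions. The pericyte marker Rgs5 moved with the models in these endothelial-like cells, at 148 CPM (9 UMIs) in WB1P and 1228 CPM (218 UMIs) in WB1P-Myc. Its part in the comparison was not tested beyond leaving out mixed cells. Over all comparisons, 59 of 61 differences of the set then moved by less than the spread between fractions. In pericyte-like cells Col4a1 differed by -0.16 (-0.53 to 0.22). Without WB1P fraction 4, Hspg2 was past 2-fold higher in endothelial-like cells of WB1P-Myc, through its WB1P-Myc UMIs.

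In epithelial-like cells 4 of 8 genes were past 2-fold, all lower in WB1P-Myc: Col4a1, Col4a2, Lama5 and Lamc1. Of all genes 16% were lower and 14.8% higher by that much, and 18.4% had every WB1P-Myc fraction below every WB1P fraction. Col4a1 was at 246, 238, 215 and 291 CPM in the WB1P fractions and 65.1, 79.1, 54.4 and 61.9 CPM in those of WB1P-Myc. The pooled Col4a1 levels were 249 and 65.2 CPM, a log2 difference of -1.94 (-2.15 to -1.72), and no fraction of the models overlapped.

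Col4a2 was at 269, 150, 129 and 140 CPM in the WB1P and 38.1, 38.2, 21.6 and 39.6 CPM in the WB1P-Myc fractions of epithelial-like cells, a log2 difference of -2.08 (-2.38 to -1.80). Lama5 was at 22.4, 34.7, 55.2 and 39.1 CPM against 7.94, 16.8, 14.1 and 14.5 CPM, a difference of -1.65 (-2.16 to -1.15). Lamc1 was at 179, 44.4, 46.0 and 58.7 CPM against 19.9, 20.5, 15.9 and 21.3 CPM, a difference of -1.52 (-1.94 to -1.10). For these 3 genes too every WB1P fraction lay above every WB1P-Myc fraction. WB1P fraction 1 held 89279 epithelial-like UMIs in 60 cells, against 543275 to 719920 UMIs in the other WB1P fractions. Its Lama5 value, the lowest of WB1P, thus rests on few UMIs.

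The remaining genes of epithelial-like cells were within 2-fold or too sparse. Lamb1 differed by -0.52 (-0.77 to -0.26), Lama4 by -0.50 (-0.84 to -0.15) and Hspg2 by 0.10 (-0.42 to 0.65). Nid1 went the other way, at 11.9 CPM in WB1P and 22.1 CPM in WB1P-Myc, a log2 difference of 0.89 (0.24 to 1.60) with overlapping fractions. Nid2 and Col15a1 had 25 and 18 UMIs in all.

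Other measures moved with this difference. The epithelial marker list summed to 6038 CPM in the epithelial-like cells of WB1P and 2307 CPM in those of WB1P-Myc, and Epcam was at 2402 CPM in the Csn3-led and 574 CPM in the Gpx2-led cluster. Median depth was 1904.5 UMIs in WB1P and 3546 UMIs in WB1P-Myc. Endothelial markers summed to 113 CPM and 68 CPM, pericyte markers to 44 and 58 CPM and fibroblast markers to 559 and 737 CPM in these cells, and Col4a1 in macrophage-like cells of WB1P was at 25.6 CPM. With cells thinned to 600 UMIs the Col4a1 difference was -2.33 and that of Col4a2 -2.24, while Lama5 and Lamc1 no longer had 50 UMIs. The part of tumour cell state in the difference was not tested.

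Barcodes above the limit of 4000 genes, left out by the study and here not classed, showed the same direction. In 40 such barcodes of WB1P and 134 of WB1P-Myc, Col4a1 was at 310 and 42.5 CPM, Col4a2 at 170 and 23.9 CPM, Lama5 at 50.7 and 12.1 CPM and Lamc1 at 63.9 and 23.0 CPM. Nid1 was at 23.2 and 19.9 CPM there. The epithelial marker list summed to 8468 and 3740 CPM in these barcodes. Endothelial markers summed to 460 and 59.9 CPM, pericyte markers to 105 and 66.2 CPM and fibroblast markers to 242 and 936 CPM. The part of other cell types in these values was not tested.

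**Figure D4:**
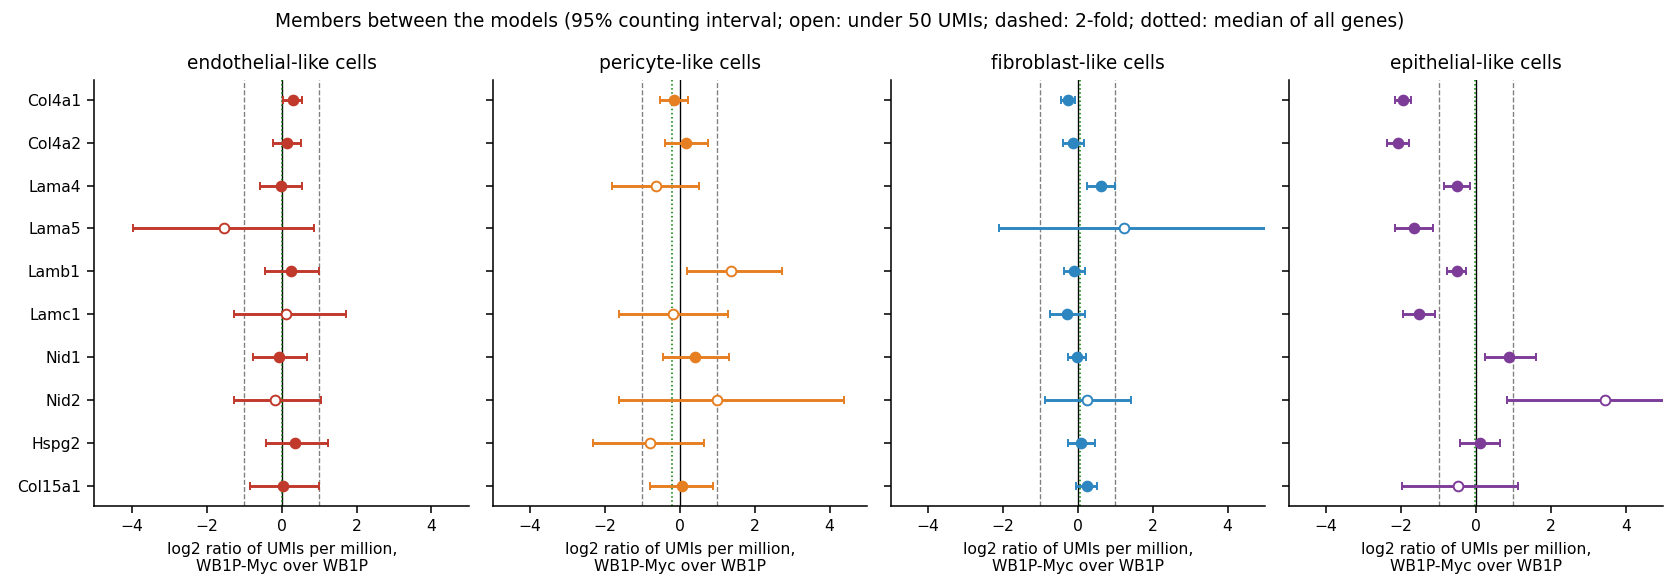
Log2 difference of each gene between WB1P-Myc and WB1P (x axis) in fibroblast-, pericyte-, endothelial- and epithelial-like cells, with exact 95% intervals. Filled points have at least 50 UMIs and open points fewer, dashed lines mark 2-fold, the dotted line is the median of all genes, and 2 intervals (Lama5 in fibroblast-like and Nid2 in epithelial-like cells) run past the axis. Filled points past 2-fold are Col4a1, Col4a2, Lama5 and Lamc1 in epithelial-like cells.

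With the epithelial-, Schwann- and chondrocyte-like cells as 1 tumour-type class, the same 4 genes were lower in WB1P-Myc, by log2 differences of -1.77 for Col4a1, -1.52 for Col4a2, -2.36 for Lama5 and -1.29 for Lamc1. Nid1, with 24 and 268 UMIs, differed by 1.26 (0.65 to 1.93), and Nid2 had 1 and 92 UMIs. Both reached the minimum only through WB1P-Myc, where they were high, and are not counted. The background was 12.8% lower and 18.2% higher. This grouping was chosen after the clusters had been seen, and in WB1P it holds the 17 chondrocyte-like cells that went against their label. Against fibroblast-like cells the tumour-type class too was lower for the 9 genes other than Lama5, where 27.9% of all genes were higher and 15.4% lower.

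Chondrocyte-like cells were compared with epithelial-like cells within WB1P-Myc, the model of 855 of the 872 chondrocyte-like cells. Col4a1 was at 158 against 65.2 CPM (log2 difference 1.28, 1.05 to 1.52), Col4a2 at 124 against 34.5 CPM (1.85, 1.56 to 2.15), Nid2 at 25.3 against 5.4 CPM (2.22) and Hspg2 at 66.6 against 23.5 CPM (1.51, 1.13 to 1.89). Nid2 reached the minimum through its chondrocyte-like UMIs (52 against 24) and is not counted. The other 3 of the 9 genes with enough UMIs were past 2-fold, none was lower, and 14.2% of all genes were higher and 10.2% lower. Nid1, at 40.8 against 22.1 CPM (0.89, 0.45 to 1.32), was under 2-fold, and Col15a1 had 31 and 11 UMIs. With both models pooled the genes past 2-fold were Hspg2, Nid1 and Col15a1 (33 and 18 UMIs), with Nid2 again not counted, where 11.1% of all genes were higher and 10.6% lower, and the epithelial-like cells of WB1P were higher in collagen IV than those of WB1P-Myc. WB1P-Myc fractions of Col4a1 in chondrocyte-like cells were at 153, 151, 188 and 142 CPM, all above the epithelial-like fractions of that model.

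Schwann-like cells, found in WB1P-Myc only, were compared with the epithelial-like cells of that model. Col4a1 was lower, at 31.0 against 65.2 CPM (log2 difference -1.07, -1.42 to -0.73), as 1 of the 8 genes with enough UMIs, where 9.9% of all genes were lower and 9.43% higher. Lama5, with 6 and 58 UMIs (-2.72, -4.23 to -1.51), reached the minimum through its epithelial-like UMIs and is not counted. Col4a2, at 29.4 against 34.5 CPM (-0.23, -0.63 to 0.15), was not past 2-fold. Lama4 was at 72.6 against 41.0 CPM (0.82, 0.53 to 1.11). Against the epithelial-like cells of both models Col4a2 was past 2-fold too, at -1.24, where 13.9% of all genes were lower and 8.43% higher. Normal Schwann cells lie on a basement membrane of their own, and the 10 genes summed to 291 CPM here, against 299 CPM in the epithelial-like cells of the same model.

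Fibroblast-like cells fell into 3 subclusters that differed in their basement membrane genes. Subcluster 1 (210 cells) was led by Sfrp4, Clec3b, Dpt and Pi16, subcluster 2 (137 cells) by Tagln, Lrrc15, Acta2 and Thbs2, and subcluster 3 (49 cells) by Sfrp2, Ccl11 and Tnc. In subcluster 2 Col15a1 was at 490 CPM (430 to 556) against 226 CPM (191 to 267) in subcluster 1, a log2 difference of 1.11 (0.81 to 1.42) seen in 7 of 7 fractions. Collagen IV differed in the same direction, with Col4a1 at 1022 against 544 CPM (log2 difference 0.91) and Col4a2 at 443 (386 to 506) against 220 CPM, higher in 6 of 7 fractions each. The exception for Col4a1 was WB1P-Myc fraction 3, at 339 CPM in subcluster 2 and 572 CPM in subcluster 1. The pericyte marker Rgs5 differed as well, at 1.6 CPM (1 UMI) in subcluster 1, 125 CPM (61 UMIs) in subcluster 2 and 330 CPM (104 UMIs) in subcluster 3, and its part in these differences was not tested.

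Lama4, Nid1 and Lamb1 were higher in subcluster 1, each by less than 2-fold over both models. Lama4 was at 304 CPM (262 to 351) in subcluster 1 and 156 CPM (123 to 195) in subcluster 2, Nid1 at 579 CPM (521 to 642) and 334 CPM (285 to 389), and Lamb1 at 393 and 254 CPM. Nid1 was lower in subcluster 2 in 7 of 7 fractions, by 0.79 on the log2 scale (-1.07 to -0.52 as subcluster 2 over 1). Of the 8 genes with enough UMIs 2 were past 2-fold, Col15a1 and Col4a2, both higher, where 7.42% of all genes were higher and 8.25% lower. In WB1P alone Col4a1 was higher (background 10.1% higher and 10.9% lower), and Col4a2, Col15a1 and Lama4 are not counted, with 31, 31 and 27 UMIs in the subcluster where each was low. In WB1P-Myc 0 of 8 were past 2-fold (background 7.34% and 9.34%), with Col15a1 at 0.98, Col4a1 at 0.77 and Lama4 at -0.76 on the log2 scale. In subcluster 3 Nid1 was lower than in subcluster 1 by more than 2-fold, at 216 CPM (168 to 274), as 1 of 8 genes with enough UMIs. Of all genes 12.5% were lower and 10.7% higher. Col4a1 was at 537 CPM in subcluster 3. The subcluster had 3 fractions with at least 5 cells, all of WB1P-Myc. In its 8 cells of WB1P, Col4a2 (23 UMIs) and Col15a1 were past 2-fold higher than in subcluster 1 of that model. Lama4, Nid1 and Hspg2 were past 2-fold lower, through their subcluster 1 UMIs alone. The share of all genes was not taken for that model, so these values are not read as a result about the set. Acta2 was among the leading genes of subclusters 2 and 3 and of the pericyte-like cluster, and 19 of the 396 fibroblast-like cells had a UMI of Rgs5.

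**Figure D5:**
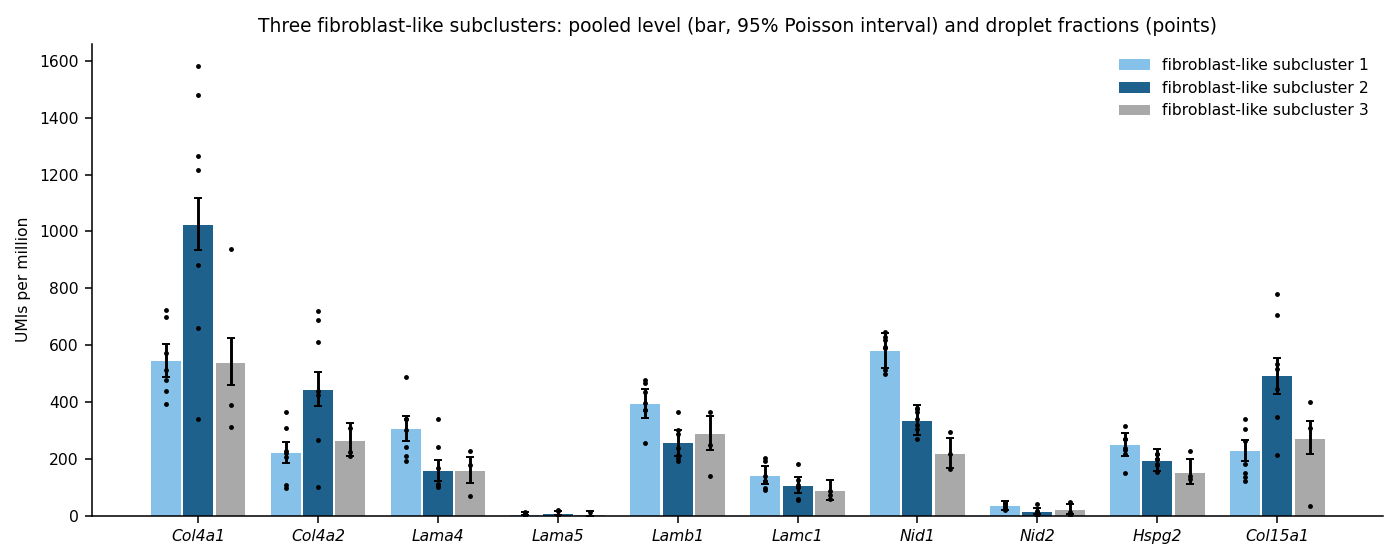
Levels of the basement membrane genes (CPM, y axis) in the 3 fibroblast-like subclusters, with exact 95% Poisson intervals. Col4a1, Col4a2 and Col15a1 are highest in subcluster 2 (Tagln, Lrrc15, Acta2), and Nid1, Lama4 and Lamb1 in subcluster 1 (Sfrp4, Clec3b, Dpt).

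Between models none of the genes counted was past 2-fold within subcluster 1 or subcluster 2. Col15a1 in subcluster 1 was at 120, 148 and 135 CPM in WB1P and 305, 182, 341 and 262 CPM in WB1P-Myc, with no overlap, where 6.83% of all genes had every WB1P-Myc fraction above every WB1P fraction. It had 31 UMIs in WB1P and 109 in WB1P-Myc, a log2 difference of 1.00 (0.42 to 1.63), and is not counted because it reached the minimum through WB1P-Myc. Col4a2, also with 31 UMIs in WB1P and 105 in WB1P-Myc, differed by 0.95 (0.36 to 1.58), and 2.71% of all genes were past 2-fold higher. Markers moved with the models in this subcluster, Pi16 at 628 CPM in WB1P and 279 CPM in WB1P-Myc, Epcam at 143 and 30.5 CPM, Lrrc15 at 147 and 198 CPM and Col2a1 at 0 and 58.4 CPM, and their part in the Col15a1 values was not tested. In subcluster 2 none of 8 genes was past 2-fold, with 3.46% of all genes higher and 3.23% lower, so the count is near those shares. Whether the difference itself differed between subclusters was not tested.

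Other components of basement membranes were measured as a list of 22 genes. Col18a1, a vascular basement membrane collagen from which endostatin is cut, reached 617 CPM in endothelial-like cells and 385 CPM in pericyte-like cells, against 52.8 CPM in fibroblast-like cells. Its log2 difference from fibroblast-like cells was 3.55 (3.14 to 3.97) in endothelial-like and 2.87 (2.32 to 3.40) in pericyte-like cells, wider than for any of the 10 genes in those comparisons that had 50 UMIs. Of the 6 genes of the list with enough UMIs in each comparison, 1 was higher in pericyte-like cells (background 4.78%), and 2, Col18a1 and Agrn, were higher in endothelial-like cells than in fibroblast-like cells (background 13.1%). The other 4 were lower there through their fibroblast-like UMIs alone and are not counted. Agrn, a heparan sulfate proteoglycan, stood at 113 CPM in endothelial-like cells and 52.8 CPM in fibroblast-like cells, and Lamb2, an alternative laminin β chain, at 50.4 and 106 CPM. Lama2, the muscle and nerve laminin α chain, at 76.0 CPM in fibroblast-like cells, and Ntn4, a laminin-related netrin, at 38.7 CPM, were at 2.2 and 1.4 CPM in epithelial-like cells.

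Receptors for basement membranes were measured as a list of 10 genes. Itga1, the α chain of a collagen receptor, was at 447 CPM in pericyte-like cells against 60.5 CPM in fibroblast-like cells and 58.8 CPM in endothelial-like cells, and Itga6, of a laminin receptor, at 214 CPM in endothelial-like cells against 31.4 CPM (4 UMIs) in pericyte-like cells and 8.4 CPM in fibroblast-like cells. Between endothelial-like and pericyte-like cells 3 of the 10 receptor genes had enough UMIs, and Itga6 and Itga1 each reached the minimum through the class where it was high (51 against 4 UMIs and 57 against 14 UMIs) and are not counted. Itgb1, the chain they share, was at 1774 CPM in pericyte-like, 1579 CPM in endothelial-like cells and 1053 CPM in fibroblast-like cells. Of 10 receptor genes, 2 had enough UMIs between pericyte-like and fibroblast-like cells and 1 was higher (background 4.78%), and 3 between endothelial-like and fibroblast-like cells, of which Itga6, with 51 and 12 UMIs, is not counted. In epithelial-like cells 4 of 6 were lower in WB1P-Myc, among them Itgb1 at -1.07 and Itga6 at -1.34 on the log2 scale, beside the background of 16% given above.

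Genes for folding and crosslinking collagen were measured as a list of 10. They also serve the fibrillar collagens. Over both models 2 of 10, Serpinh1 and P4hb, were lower in endothelial-like than in fibroblast-like cells and none was higher. Col4a1 and Col4a2 were higher. Of all genes 18.0% were lower and 13.1% higher, so the count for this list is near the share of all genes. A further 5, Loxl2 among them, were lower through their fibroblast-like UMIs alone and are not counted. In WB1P-Myc alone Pxdn was past 2-fold higher and Serpinh1 lower, where the share of all genes was not taken. Over both models Pxdn was also past 2-fold higher, and P4hb lower, in endothelial-like than in pericyte-like cells. There 4 genes had enough UMIs, and 21.0% of all genes were higher and 8.71% lower. Serpinh1, the collagen chaperone, was lower in endothelial-like cells, at 769 CPM, than in fibroblast-like cells, at 1787 CPM, P4hb, a subunit of the prolyl hydroxylase, at 260 and 811 CPM, and Loxl2, a lysyl oxidase that crosslinks collagen IV, at 54.6 and 664 CPM. Loxl2 was at 871 CPM in pericyte-like cells, a log2 difference of -4.00 (-4.95 to -3.16) for endothelial-like over pericyte-like cells that rests on 13 endothelial-like UMIs and on the pericyte-like UMIs (111) to reach the minimum. In epithelial-like cells all 10 were lower than in fibroblast-like cells (background 17.0%), as were Col4a1 and Col4a2. In WB1P alone 6 of the 10 were lower, with Pxdn not counted there. The share of all genes past 2-fold was not taken for that model. The median log2 difference of the list there was -1.63, against 0.36 over all genes with enough UMIs. In chondrocyte-like cells 8 of 10 were higher than in epithelial-like cells (background 11.1%). Within WB1P-Myc 9 of 10 were higher (14.2%), and so were Col4a1 and Col4a2.

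Likeness of pattern was measured as Pearson correlation of log2 levels over 12 points, each a class in a model, against genes with at least 200 UMIs. Lama5 and Nid2 themselves had 192 and 174 UMIs. The points share libraries and differ in depth, so the values are descriptions. Col4a1 and Col4a2 were nearest to each other at 0.996, followed for Col4a1 by Atp8b1 and Gng11 and for Col4a2 by Prkcdbp and Gng11. Nid1 and Col15a1 were near each other at 0.97, with Sparc and Rhoj next to Nid1 and Ebf1 and Dpysl3 next to Col15a1. Lama4 was nearest to Spry1, Adamts1 and Hspg2, Hspg2 to Prkcdbp, Pxdn and Prss23, Nid2 to Mcam, Crim1 and Ltbp4, Lamb1 to Rbfox2, Maged1 and Gnas, and Lamc1 to Osmr, Plat and Igfbp7. Lama5 stood apart, with correlations of 0.06 to 0.44 with the other 9 genes, and was nearest to Arglu1 at 0.93, Ier5l and 1700123O20Rik.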

How the data were processed

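The deposited tables hold raw counts of UMIs, one value per gene symbol and barcode, which the authors made with dropseq-tools. Scanpy and mm10 are named in the submitters' processing notes, and the aligner was not given in the sources used here. The 8 HiSeq tables (1000 barcodes each) gave the main values, and the MiSeq tables of the same fractions a repeat run. Genes in at least 3 cells and barcodes with 450 to 4000 genes and under 20% mitochondrial UMIs were kept. Counts were scaled to 10000 per cell, logged and clustered with scanpy 1.11.5 and igraph 0.11.9 under Python 3.11.15 (30 components, 20 neighbours, Leiden 0.3, and for stromal cells 40 components and Leiden 0.6) on all genes except the 10 members and the other listed genes. Clusters were named from fixed marker lists. No doublet caller was run, and the upper gene limit was the only guard.

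CPM are pooled counts with exact Poisson intervals, shares have Clopper-Pearson intervals and log2 ratios conditional binomial intervals (scipy 1.17.1). A ratio needed 50 UMIs summed over both groups, and a gene past 2-fold that reached it through the higher group alone (the other under 50) is not counted in the report, and a class at 0 took a floor of 3 counts. Fraction values need 5 cells. With 1 sample per model no test was run. TMM factors came from edgeR 4.0.16 and size factors from DESeq2 1.42.0, under R 4.3.3, as alternatives only. The counting of genes past 2-fold was tested on simulated counts drawn from the fibroblast-like profile. These held counting error only, with no mixed cells and no spread between cells, fractions or suspensions, so the simulation cannot judge those. The members and lists were chosen with earlier results of these data known. Named genes were the 10 members, the 3 genes of each list with the highest summed CPM, the 2 with the largest absolute log2 ratio in each class comparison and the 3 genes most like each member. Promoter sequences are RefSeq, GRCm38.p6.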

Additional observations from a re-analysis of the deposited data

Results flagged for a closer look

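In groups of 4 droplet fractions, 45 in all, the gap of the highest or lowest fraction to its neighbour passed Dixon's 95% critical value in 6, and chance passes about 1 in 20 groups. Col4a2 in epithelial-like cells was at 269 CPM in WB1P fraction 1, from 24 UMIs in 60 cells, against 129 to 150 CPM in the other fractions. Lamc1 in the same 60 cells was at 179 CPM, from 16 UMIs, against 44.4 to 58.7 CPM. Col4a2 in epithelial-like cells of WB1P-Myc was lowest in fraction 3, at 21.6 CPM, against 38.1 to 39.6 CPM. Lamb1 in endothelial-like cells was at 235 CPM in WB1P-Myc fraction 2, from 11 UMIs in 21 cells, against 513 to 554 CPM. Lamc1 in fibroblast-like cells was at 147 CPM in WB1P-Myc fraction 3, against 89.6 to 97.1 CPM. Nid1 in Schwann-like cells was at 16.2 CPM in WB1P-Myc fraction 4, from 12 UMIs in 151 cells, against 31.7 to 32.9 CPM. Of 34 class differences set side by side between the models, in 0 did every fraction of one model go one way and every fraction of the other the opposite way.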

How the results depend on the processing

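No paired analysis was possible because the fractions of a number are technical parts of separate suspensions, each model is 1 sample and no test was run. Of 1337 values under another setting, 1223 moved by less than the spread between fractions and 114 moved by more. For class differences the spread was an SD over fractions of both models, so it also holds differences between models. It was 1.35 on the log2 scale for Hspg2 between endothelial-like and pericyte-like cells, so sizeable moves can lie under it. Reversal was scored only for ratios past 2-fold in the main setting, and 0 of these changed sign. A smaller ratio that changed sign was placed by the size of its move alone. Most that moved did so with the MiSeq tables or with cells classed one by one by detected markers, and the cause was not tested. The MiSeq tables and the settings with other gene limits were run only with marker-classed cells, so each changes more than 1 choice. The counts here include genes that reached the minimum through the higher group alone. Between pericyte-like and fibroblast-like cells 4 genes in place of 2 were past 2-fold with marker-classed cells, also with barcodes from 200 genes or with no upper gene limit, and with no count minimum. Between endothelial-like and pericyte-like cells 1 in place of 2 was past 2-fold with the MiSeq tables or no upper gene limit (both marker-classed), without mixed cells and with cells thinned to 600 UMIs, and 4 were with no count minimum. Leaving out 1 fraction at a time gave 1 to 3, where 1 (Lama4) was without WB1P-Myc fraction 1 and 3 without WB1P-Myc fraction 2. Between epithelial-like and fibroblast-like cells 6 in place of 10 were past 2-fold with the MiSeq tables and marker-classed cells. Between models the fibroblast-like count rose from 0 to 2 with the MiSeq tables and to 1 with no upper gene limit, both marker-classed, and to 1 with no count minimum, the pericyte-like and endothelial-like counts to 1 with no count minimum, and the epithelial-like count fell from 4 to 2 in thinned cells, where Lama5 and Lamc1 had under 50 UMIs. Leaving out 1 fraction gave 0 to 1 genes in endothelial-like cells, with Hspg2 past 2-fold without WB1P fraction 4. TMM factors moved the epithelial-like difference of Col4a1 between models from -1.94 to -1.72. At Leiden 0.3 the stromal cells gave no pericyte-like class and no value. Depth limits Lama5 and Nid2 in stroma and all genes in the 97 pericyte-like cells.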

Other observations

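Among the other components, Col4a5 and Col4a6, which encode a second kind of collagen IV trimer, were singled out after their values were seen. They had their highest levels in chondrocyte-like cells, at 42.3 CPM (33.9 to 52.1) for Col4a5 and 30.8 CPM (23.7 to 39.3) for Col4a6, against 14.4 and 10.9 CPM in epithelial-like cells of both models, where Col4a5 was at 31.2 CPM in WB1P. Endothelial-like cells, the class with the highest Col4a1, had 0 UMIs of both, with an exact 95% interval up to 15.5 CPM each, so they could not be placed below the epithelial-like level.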
